A study of Rattus norvegicus with 6 samples.

Results

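The proteasome genes of sensory neurons were examined in spontaneously hypertensive rats after ablation of the fat around the kidney. Genes were taken as members when they were annotated as protein coding and their symbol began with Psm, a letter from a to g and a number, which gave 50 of the 25689 genes in the table. The 6 samples came from wild type Spontaneously Hypertensive Rats (SHRs), with an age of 6 to 8 weeks in the labels. Perirenal adipose ablation (PRATA) had been performed for 3 samples and a sham operation for the other 3, and the dorsal root ganglia (DRGs) at L1-L2, which hold the cell bodies of the sensory nerves reaching this fat, were taken 4 weeks later. Neurons were separated from the digested ganglia by their adhesion in culture and were not sorted, so that glial RNA can remain in every sample. The labels do not say whether the 3 samples of a group came from separate animals or from pools, so the tests measure the spread between these samples, which may be technical.

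The proteasome is the chamber in which cells degrade proteins that carry ubiquitin chains. Its 20S core is a barrel of alpha rings, which form the gate, and beta rings, of which the subunits encoded by Psmb5, Psmb6 and Psmb7 cut proteins. On one or both ends sits the 19S particle, whose base unfolds the substrate with a ring of ATPases and whose lid removes ubiquitin, and together these parts make the 26S proteasome. Dedicated chaperones assemble the core and the base, other activators can open the core in place of the 19S particle, and interferon replaces the cutting subunits by inducible ones that favour peptides for antigen presentation. When proteasome activity falls short, the transcription factor NRF1, encoded by Nfe2l1, raises all subunits together through the antioxidant response element. Neurons rely on this machinery over long axons, and it takes part in synaptic remodelling.

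The members fell into 8 genes of the alpha ring, 7 constitutive and 4 inducible or tissue-specific genes of the beta ring, 6 base ATPases, 3 other genes of the base including the ubiquitin receptor Psmd4, 8 lid genes, 5 genes of activators and an inhibitor, 4 chaperones of the core and 3 of the base. The last 2, Psmc3ip and Psme3ip1, matched by name alone, since they encode partners of a subunit or activator and no part of the particle. The alpha subunit 3 gene stood in the table as Psma3l, a symbol that RefSeq lists as an older name of Psma3. Levels are given as CPM, counts scaled to a common library total, after scaling by the trimmed mean of M values (TMM). Total counts lay between 5892967 and 15226952 per sample, and 3 counts corresponded to 0.207 to 0.468 CPM, which covers counting error only. The filter on low counts left 47 of the 50 members. Psma8, the alpha subunit of spermatocytes, had 1 to 9 counts per sample, Psmb11, the beta subunit of the thymus, had 1 to 10, and Psmd10, a base chaperone, had 6 to 17, and these 3 were not tested.

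The labelled cell type was checked first, because a change in the cells of a sample moves all of its genes. In bulk RNA, fewer cells of a type and less RNA per cell cannot be told apart. All 26 sensory neuron markers were detected, and their summed level was 17344 to 25174 CPM after PRATA and 11693 to 18340 CPM after the sham operation. All 26 had a log2 fold change above 0, beside 7760 of all 14919 genes tested, and their median was 0.555. Without overlap, 9 of them were higher after PRATA, beside 11.6% of all genes. By edgeR, 8 (30.8%) were at an unadjusted p under 0.05, beside 18.3% of all genes. The neuronal tubulin gene Tubb3 measured 1588, 1729 and 1847 CPM after PRATA and 874, 1127 and 946 CPM in sham samples, a log2 fold change of 0.81 with an adjusted p of 0.168. The sensory transcription factor gene Pou4f1 had a log2 fold change of 1.02 with an adjusted p of 0.156. This was the smallest adjusted p of any gene, and other genes, among them Sox10 and Postn, shared it. Summed satellite glia markers were 3651 to 6808 CPM after PRATA and 4876 to 9666 CPM in sham samples. All 10 had a log2 fold change below 0, beside 48.0% of all genes, with a median of -0.60. The glial transcription factor gene Sox10 had a log2 fold change of -1.64 (adjusted p = 0.156), with every PRATA sample below every sham sample. Summed Schwann cell markers were 2004 to 2619 against 1517 to 1858 CPM. Fibroblast markers summed to 1177 to 3467 against 2085 to 3066 CPM and endothelial markers to 74.0 to 154 against 30.4 to 181 CPM. No marker of any list was at 0 in every sample. Ngfr alone supplied 825, 585.5 and 802.5 CPM of the Schwann sum after PRATA and 403, 523 and 393 CPM in sham samples. Thy1 alone supplied 665, 522 and 888.5 against 468, 722 and 505 CPM of the fibroblast sum. A sum that rests largely on 1 gene need not stand for the named cells, and sums without these genes were not computed. These lists held both signs. After PRATA, 8 Schwann cell markers were higher and 3 lower, and 11 macrophage and immune markers were higher and 3 lower. Of the fibroblast markers 2 were higher and 7 lower, and of the endothelial markers 8 were higher and 1 lower. The 2 markers of smallest p in each other list had log2 fold changes of -0.98 for Fbln2, 2.44 for Ncmap and 0.75 for Ngfr. Lyz2 had 1.14, C1qa 1.55, Postn -1.77, Fn1 -0.81, Vwf 1.47 and Emcn 1.06, and none of these genes passed the adjusted threshold. Some of these rested on few reads. In sham samples Ncmap had 7, 5 and 2 counts, C1qa 44, 5 and 12, and Emcn 15, 26 and 2. Postn had 11, 19 and 36 counts after PRATA. PRATA replicate 3 and sham replicate 1 stood apart from the others in the share of 7SL RNA reads on 1 copy gene (92.0% and 94.1% against 45.3% to 47.4%), and results are also given without them. The part of this shift in cell markers in the results on proteasome genes was not tested.

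No proteasome gene passed the test after PRATA. Of the 47 tested members, 0 had an adjusted p under 0.05 by edgeR's quasi-likelihood test, as did 0.0% of all 14919 genes tested, and the smallest adjusted p of a member was 0.231. For all genes this 0 depended on the samples kept. The same fit called 721 genes without sham replicate 2 and 0 without any other single sample. In the 4 samples without PRATA replicate 3 and sham replicate 1 it called 13 genes. There were 0 members among the genes called in either setting. DESeq2, limma-trend and voom each gave 0 members as well, although DESeq2 and voom called 662 and 1173 genes of the whole table. At an unadjusted p under 0.05, 3 members were lower after PRATA and 0 were higher, which is 6.38% of the members, whereas 18.3% of all genes tested reached this threshold, 10.1% lower and 8.19% higher. These 3 were Psma3l of the alpha ring, the base chaperone gene Psmd5 and the activator gene Psme3. The number rested on single samples: it was 1 without PRATA replicate 1, 2 or 3, 5 without sham replicate 1, 3 without sham replicate 2, 0 without sham replicate 3, and 0 in the 4 samples without PRATA replicate 3 and sham replicate 1. No member passed an absolute log2 fold change of 1, against 4.4% of all genes that did so at an unadjusted p under 0.05.

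**Figure D1:**
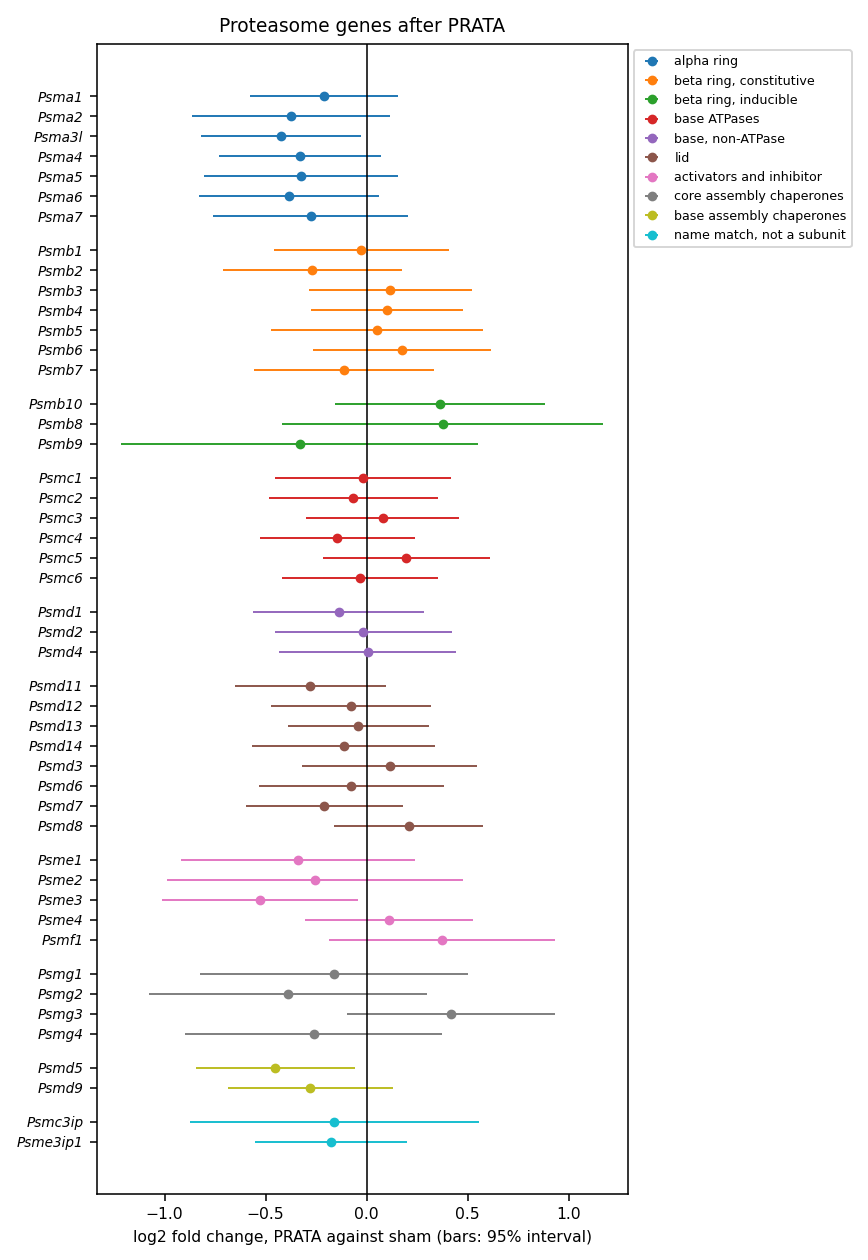
Log2 fold change (PRATA minus sham, horizontal axis) of each of the 47 tested proteasome genes, grouped by role, with the 95% confidence interval derived from edgeR's test as a bar. The points lie between -0.53 and 0.42, and all 7 tested genes of the alpha ring lie left of 0.

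The differences were small and were measured closely. The largest absolute log2 fold change among the members was 0.53, and the members' quartiles were -0.28 and 0.07, against -0.33 and 0.34 for all genes tested. The 95% confidence interval of the log2 fold change lay within -1 and 1 for 43 of the 47 members (91.5%). It did so for all 31 tested genes of the 26S particle, compared with 48.1% of all genes, which were not matched for level. A change of 2-fold in either direction therefore lay outside the interval for each gene of the 26S particle. The log2 fold change was below 0 for 33 members (70.2%), against 48.0% of all genes, and the median was -0.11, against 0.02 for all genes. The values of PRATA and sham samples did not overlap for 8 members (17.0%), 6 lower and 2 higher after PRATA, while 22.8% of all genes showed no overlap, 11.2% with PRATA below and 11.6% with PRATA above. With 3 samples per group the exact permutation test of a single gene cannot give a p below 0.1.

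Among the classes of the 26S particle, the alpha ring, which gates the core, was the one in which all tested genes had the same sign. All 7 had a lower mean after PRATA, with log2 fold changes between -0.42 and -0.21 and a median of -0.33, and the groups did not overlap for Psma1, Psma3l and Psma6. Psma3l (ENSRNOG00000007851) measured 109, 79.9 and 98.8 CPM after PRATA and 130.0, 121 and 135 CPM in sham samples. The means were 95.9 ± 14.7 and 129 ± 6.68 CPM (SD, n = 3 each), a ratio of 0.745. This corresponded to a log2 fold change of -0.42 ± 0.17 (SE), with a 95% confidence interval of -0.82 to -0.03 and an adjusted p of 0.247. Psma6 had 76.3, 52.4 and 75.4 CPM after PRATA and 79.8, 90.5 and 96.2 CPM after the sham operation, and the highest PRATA sample lay just below the lowest sham sample. Its log2 fold change was -0.38 (adjusted p = 0.326). Psma4, whose product carries a tail that closes the gate, had 85.3, 81.4 and 87.7 CPM against 86.4, 116 and 118 CPM, so that sham replicate 1 lay among the PRATA samples and the other sham samples lay above them. Its log2 fold change was -0.33 (adjusted p = 0.344). The counting of reads shared with near-identical copies is not stated, and alpha and beta subunit genes with processed copies in the genome carry that limit.

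The constitutive beta ring was spread around 0. Of its 7 genes, 4 were higher and 3 lower after PRATA, with a median log2 fold change of 0.05 and no gene whose groups were apart. Without sham replicate 1 this median was -0.17. Psmb5, which encodes the chymotrypsin-like subunit, had 59.4, 47.8 and 61.0 CPM after PRATA and 38.3, 62.4 and 61.7 CPM in sham samples. Its log2 fold change was 0.05, with a 95% confidence interval of -0.47 to 0.58 and an adjusted p of 0.925. The sign of this value changed when sham replicate 1, the lowest of the 6, was left out, to -0.17. Psmb6, the caspase-like subunit gene, measured 41.8, 39.1 and 53.0 CPM against 33.7, 43.7 and 41.4 CPM, with a log2 fold change of 0.18 (adjusted p = 0.659). Psmb7, the trypsin-like subunit gene, measured 129, 98.2 and 108 CPM against 98.4, 139 and 126 CPM, with a log2 fold change of -0.11 (adjusted p = 0.790). In all 3 cutting subunits the groups overlapped and sham replicate 1 was the lowest sham sample. Among the structural subunits, Psmb2 had the lowest log2 fold change, with 28.8, 31.5 and 34.4 CPM after PRATA against 34.8, 32.8 and 46.5 CPM and a value of -0.27 (adjusted p = 0.476). Psmb3 had 66.7, 61.8 and 78.7 CPM against 54.9, 70.5 and 65.7 CPM, with a log2 fold change of 0.12 (adjusted p = 0.754).

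Since both rings are parts of one particle, the difference between their mean log2 CPM was also taken within each sample, where the scaling between samples cancels. Gene length enters each difference, so that only its variation between samples can be read. These differences were computed after the class medians were seen and are given without a test. The mean of the 7 alpha genes minus that of the 7 constitutive beta genes was 0.31, 0.09 and 0.08 after PRATA and 0.55, 0.41 and 0.54 in the sham samples. All 3 PRATA samples lay below all 3 sham samples, with means of 0.16 ± 0.13 and 0.50 ± 0.08 (SD, n = 3 each) and a difference of -0.34 on the log2 scale. Without Psma3l the difference was -0.33 and the groups still did not overlap. The mean of the alpha genes minus that of the base ATPases was -0.94, -1.001 and -0.99 after PRATA and -0.64, -0.74 and -0.55 in sham samples, again without overlap, while the beta genes set against the ATPases gave a difference between groups of 0.01 with overlapping samples. The summed level of the alpha genes alone overlapped between groups. The 8 genes of the class summed to 535, 418 and 485 CPM after PRATA and 532, 621 and 673 CPM in sham samples. In sham replicate 1 the median deviation from each gene's own mean was 0.01 log2 units for the alpha genes and -0.26 for the beta genes. In the 4 samples without PRATA replicate 3 and sham replicate 1, the median log2 fold change was -0.45 for the alpha genes and -0.14 for the beta genes. Set against the lid, the alpha genes were at -0.55, -0.755 and -0.79 after PRATA and -0.51, -0.42 and -0.34 in sham samples. The group means differed by 0.28 on the log2 scale, and PRATA replicate 1 lay just below sham replicate 1. The differences that include the alpha ring reuse the same genes and are not separate results. No share without overlap was computed over differences between other classes.

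**Figure D2:**
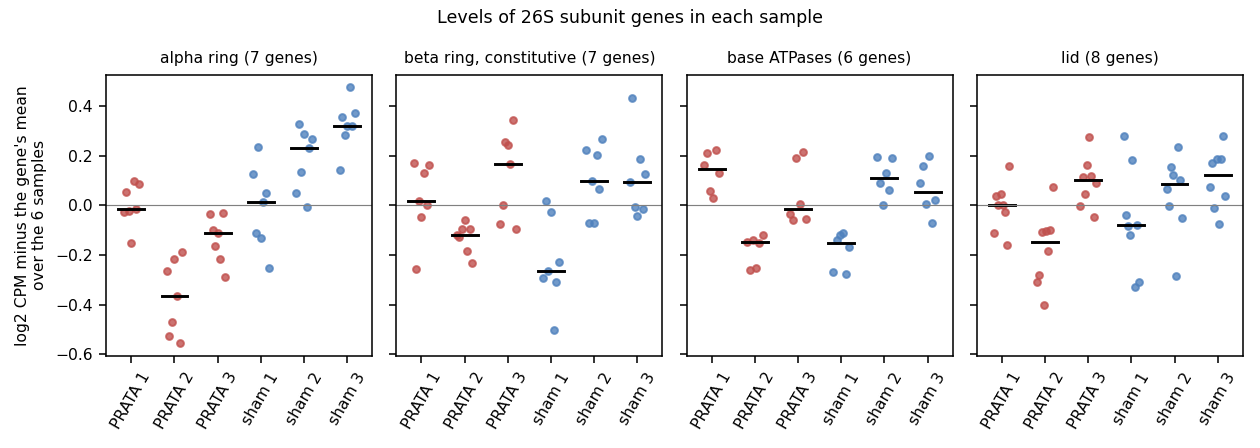
Deviation from the gene's own mean log2 CPM (vertical axis, log2 units) in the 3 PRATA and 3 sham samples, for the genes of the alpha ring, the constitutive beta ring, the base ATPases and the lid, with a line at the median of each sample. The alpha ring is lowest in PRATA replicate 2 and highest in sham replicates 2 and 3, and the constitutive beta ring is lowest in sham replicate 1.

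Over the 31 tested genes of the 26S particle, the median deviation from each gene's own mean was 0.03, -0.18 and 0.01 log2 units in the PRATA samples and -0.12, 0.12 and 0.16 in the sham samples, in the order of their numbers. PRATA replicate 2 was the lowest of the 6 samples for 15 of the 31 genes and sham replicate 1 for 11, whereas sham replicate 3 was the highest for 14. Summed over these genes, the level was 3394, 2899 and 3427 CPM after PRATA and 3048, 3596 and 3666 CPM after the sham operation, and the groups overlapped. These 31 genes varied together from sample to sample: after the group means were removed, 89.9% of the 465 pairs of genes had a positive correlation over the 6 samples, with a median Pearson's r of 0.63. This is a description, since the genes share libraries and scaling, and no such share was computed for other genes. The log2 fold changes of the 31 genes were also close to each other, with an SD of 0.18 among genes, against 0.58 among all genes tested. The genes were not matched for level in this comparison, and the median SE was 0.184 for the 26S genes and 0.265 for all genes.

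The 6 ATPases of the base had log2 fold changes between -0.15 and 0.20 and a median of -0.03, with overlapping groups for all 6. Psmc5 had the highest of them, with 149, 115 and 148 CPM after PRATA against 105, 133 and 122 CPM and a value of 0.20 (adjusted p = 0.590). Psmc4 had the lowest, with 86.5, 71.2 and 85.1 CPM against 78.6, 92.9 and 97.3 CPM and a value of -0.15 (adjusted p = 0.671). Psmc3 had 173, 151 and 189.8 CPM against 153, 166 and 167 CPM, with a log2 fold change of 0.08 (adjusted p = 0.833). In each of these 3 genes PRATA replicate 2 was the lowest PRATA sample. The scaffold genes of the base were equally close: Psmd1 had 261, 231 and 305 CPM against 282, 303 and 292 CPM (log2 fold change -0.14, adjusted p = 0.719). Psmd2 had 249.8, 232 and 278 CPM against 215, 267 and 287 CPM (log2 fold change -0.02, adjusted p = 0.973). The ubiquitin receptor gene Psmd4 had 167, 147 and 158 CPM against 123, 172 and 176 CPM, with a 95% confidence interval of its log2 fold change from -0.43 to 0.44 (adjusted p = 0.993).

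In the lid, 6 of 8 genes were lower and 2 higher after PRATA, with a median log2 fold change of -0.08. Psmd11, a lid scaffold, had 93.7, 81.8 and 101 CPM after PRATA and 123, 106 and 106 CPM in sham samples, without overlap, and its log2 fold change was -0.28 (adjusted p = 0.391). Psmd8, another lid subunit gene, had the opposite sign, with 108, 102 and 103 CPM against 77.9, 93.2 and 99.2 CPM, all PRATA samples above all sham samples, and a log2 fold change of 0.21 (adjusted p = 0.509). Both intervals included 0, at -0.65 to 0.10 for Psmd11 and -0.16 to 0.58 for Psmd8. Psmd7, the inactive partner of the deubiquitinase, had 159.5, 166 and 173 CPM against 169, 191 and 216 CPM, with overlapping groups and a log2 fold change of -0.21 (adjusted p = 0.530). Psmd14, which encodes the deubiquitinase itself, had a log2 fold change of -0.11 (adjusted p = 0.792). The subunits whose symbols lie outside the rule were Sem1 and the ubiquitin receptor Adrm1, with log2 fold changes of -0.27 (adjusted p = 0.561) and -0.14 (adjusted p = 0.702). Adrm1 measured 81.1, 94.0 and 107 CPM against 95.1, 102 and 113 CPM, and the groups overlapped.

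The lowest p-value of the members belonged to a chaperone. Psmd5 (ENSRNOG00000018809), which holds ATPases during assembly of the base and can keep the 26S particle from forming, measured 23.8, 28.9 and 27.5 CPM after PRATA and 35.8, 33.1 and 40.8 CPM in sham samples. The means were 26.7 ± 2.67 and 36.6 ± 3.92 CPM (SD, n = 3 each), the ratio was 0.731 and the groups did not overlap. The log2 fold change was -0.45 ± 0.17 (SE), with a 95% confidence interval of -0.85 to -0.06 and an adjusted p of 0.231. Psmd9, another chaperone of the base, was also lower in every PRATA sample, with 15.5, 13.9 and 16.2 CPM against 18.9, 19.4 and 17.0 CPM and a log2 fold change of -0.28 (adjusted p = 0.430). The chaperones of the core had both signs. Psmg3 had 12.8, 10.1 and 13.7 CPM after PRATA and 7.95, 9.83 and 9.63 CPM in sham samples, every PRATA sample above every sham sample, with a log2 fold change of 0.42 (adjusted p = 0.351). Its partner gene in the early alpha ring chaperone, Psmg4, had 4.91, 3.90 and 5.46 CPM against 5.04, 5.46 and 6.61 CPM (log2 fold change -0.26, adjusted p = 0.644). Psmg2 had 11.5, 9.08 and 6.33 CPM against 8.57, 13.6 and 13.1 CPM (log2 fold change -0.39, adjusted p = 0.507), and both overlapped between groups. Pomp, the maturation factor of the beta ring, had 17.3, 23.6 and 28.6 CPM against 24.4, 27.0 and 25.03 CPM, with a log2 fold change of -0.13 (adjusted p = 0.771).

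**Figure D3:**
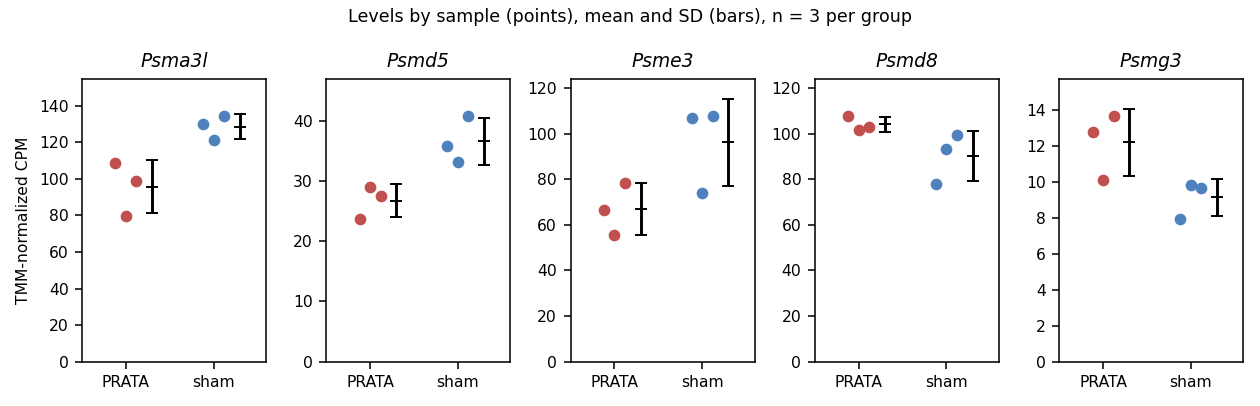
TMM-scaled CPM (vertical axis) in each PRATA and sham sample for Psma3l, Psmd5, Psme3, Psmd8 and Psmg3, with the group mean and SD (n = 3) as a bar beside the points. Psma3l and Psmd5 are lower in every PRATA sample, and Psme3 overlaps because sham replicate 2, at 74.1 CPM, lies below PRATA replicate 3, at 78.2 CPM.

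Among the activators, Psme3 (ENSRNOG00000051344), which encodes the nuclear PA28 gamma ring, had the largest difference of all members. It measured 66.6, 55.6 and 78.2 CPM after PRATA and 107, 74.1 and 108 CPM in sham samples, with means of 66.8 ± 11.3 and 96.2 ± 19.1 CPM (SD, n = 3 each) and a ratio of 0.694. The log2 fold change was -0.53 ± 0.21 (SE), with a 95% confidence interval of -1.01 to -0.04 and an adjusted p of 0.244, and the groups overlapped through sham replicate 2. Psme4, which encodes the activator PA200, had 165, 147 and 172 CPM against 177, 129.9 and 141 CPM and a log2 fold change of 0.11 (adjusted p = 0.777). The inhibitor gene Psmf1 had 27.9, 21.6 and 24.8 CPM against 13.2, 22.9 and 21.4 CPM, with 1 sham sample far below the others, and a log2 fold change of 0.37 (adjusted p = 0.439). The 2 genes matched by name alone differed little, Psmc3ip by -0.16 (adjusted p = 0.820) and Psme3ip1 by -0.18 (adjusted p = 0.591) on the log2 scale.

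The core subunits Psmb8, Psmb9 and Psmb10 and the activators Psme1 and Psme2 are those that interferon induces, and the letters of an interferon response element stand in the promoters of some of them. In the 250 bases before the start, its letters (GAAA, any 2 bases, GAAA) were searched on both strands in RefSeq promoters of the GRCr8 assembly, which held 45 of the 50 members. They were found for 5 members (Psma4, Psmb10, Psmb3, Psmd7 and Psme2), for 7 of 11 genes of an antigen presentation and interferon list with a promoter, and for 3.41% of all 33469 promoters. The windows below show the inducible proteasome genes beside 2 interferon genes discussed with them, with the matched letters in capitals, each 5' to 3' on the strand of its gene. The Gbp2 and Irf7 windows hold the reverse complement. Psmb10 has 2 matches, 73 to 64 and 17 to 8 bases before the start (chr19:50743331-50743390 and chr19:50743293-50743334, minus strand), and Psme2 has 1, 53 to 44 bases before it (chr15:33052770-33052829, minus strand). Those of Gbp2 (chr2:234005671-234005726, plus strand) and Irf7 (chr1:205800058-205800117, minus strand) lie 31 to 22 and 69 to 60 bases before the start. No match was found in the windows of Psmb8, Psmb9 or Psme1.
Psmb10 upstream: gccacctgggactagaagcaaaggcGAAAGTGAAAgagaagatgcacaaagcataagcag
Psmb10 downstream: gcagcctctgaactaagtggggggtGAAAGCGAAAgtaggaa
Psme2: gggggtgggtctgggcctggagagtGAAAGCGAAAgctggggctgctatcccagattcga
Gbp2: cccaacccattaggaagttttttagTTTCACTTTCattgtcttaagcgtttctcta
Irf7: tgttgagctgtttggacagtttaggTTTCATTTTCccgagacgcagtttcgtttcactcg

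These inducible proteasome genes did not share one sign. Psmb8 had 11.8, 13.2 and 8.07 CPM after PRATA and 7.05, 5.62 and 12.6 CPM in sham samples, with a log2 fold change of 0.38 and a 95% confidence interval of -0.42 to 1.17 (adjusted p = 0.590). Psmb9 had 5.68, 4.22 and 2.53 CPM against 3.80, 5.15 and 6.61 CPM, with a log2 fold change of -0.33 and an interval of -1.22 to 0.55 (adjusted p = 0.676). Psmb10 had 20.1, 13.9 and 16.1 CPM against 11.3, 12.2 and 15.4 CPM, with a log2 fold change of 0.36 and an interval of -0.16 to 0.88 (adjusted p = 0.421). In all 3 the groups overlapped. Set within each sample against the constitutive subunit it replaces, only Psmb10 was apart between the groups: the log2 ratio of Psmb10 to Psmb7 was -2.68, -2.83 and -2.74 after PRATA and -3.12, -3.51 and -3.03 in sham samples. The ratios of Psmb8 to Psmb5 and of Psmb9 to Psmb6 differed by 0.36 and -0.53 between the group means, with overlap. Among single genes, 22.8% of all tested showed no overlap, and no such share was computed for ratios. The activators Psme1 (54.0, 64.8 and 37.5 against 68.4, 50.3 and 78.9 CPM, log2 fold change -0.34, adjusted p = 0.493) and Psme2 (48.1, 36.0 and 24.7 against 27.8, 46.0 and 55.8 CPM, log2 fold change -0.25, adjusted p = 0.702) overlapped too.

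Of the 16 genes of the interferon list, 13 had a higher mean and 3 a lower mean after PRATA, with a median log2 fold change of 0.70, and 6 were higher and 1 lower at an unadjusted p under 0.05. That is 43.8% of the list beside 18.3% of all genes, and none passed the adjusted threshold. Irf1, a transcription factor that drives the inducible subunits, measured 102, 116 and 41.4 CPM after PRATA and 41.2, 19.0 and 23.4 CPM in sham samples, a log2 fold change of 1.62 (adjusted p = 0.168). Gbp2, an interferon-induced GTPase, had the opposite sign, with 1025, 948 and 615 CPM against 2425, 1542 and 3813 CPM and a log2 fold change of -1.59 (adjusted p = 0.156). Irf7, named after its values were seen, had 35.9, 42.1 and 10.1 CPM against 10.4, 7.65 and 11.5 CPM. PRATA replicate 3 stood apart from the other PRATA samples in this list. It was the lowest of the 3 in 15 of 16 genes and lay under the highest sham sample in 14. PRATA replicates 1 and 2 were above every sham sample in 10. That last count sets PRATA replicate 3 aside, and no share over all genes was computed for it. Of Psmb8, Psmb9, Psmb10, Psme1 and Psme2, 4 were lowest in PRATA replicate 3, and for 0 of these 5 were PRATA replicates 1 and 2 both above every sham sample. After PRATA, macrophage markers summed to 73.2, 224 and 179 CPM, beside 57.6 to 136 CPM in sham samples, and lymphocyte markers to at most 6.56 CPM in any sample. The part of these cells in the interferon genes was not tested.

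**Figure D4:**
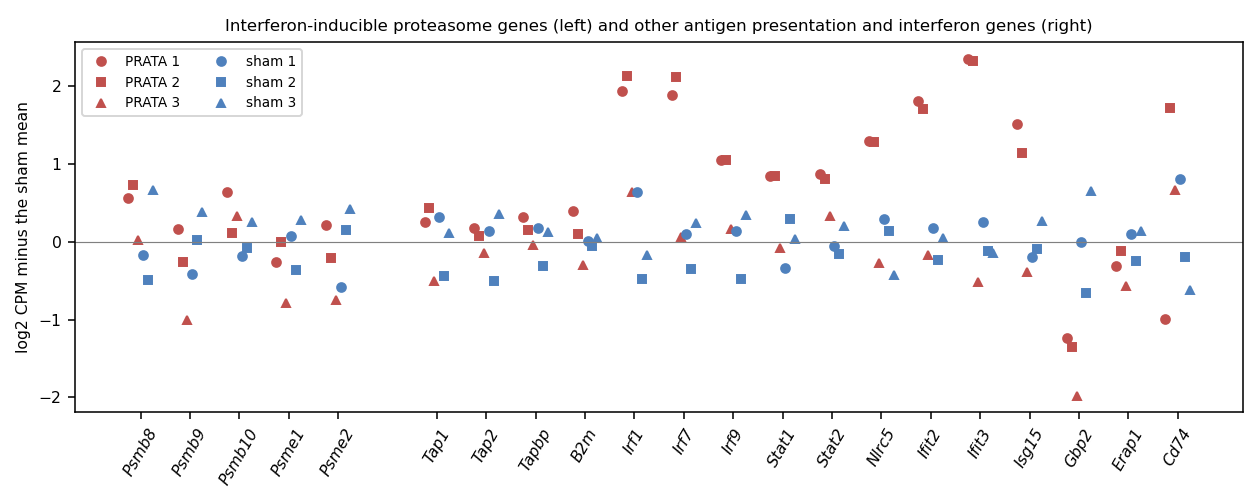
Log2 CPM minus the sham mean (vertical axis) in each sample for the 5 inducible proteasome genes and the 16 genes of the antigen presentation and interferon list. For 10 genes of the list PRATA replicates 1 and 2 lie above all sham samples, a count that sets PRATA replicate 3 aside. The inducible proteasome genes overlap between groups.

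The genes that control proteasome levels were read in the same way. The letters of the antioxidant response element, TGACNNNGC, were found on either strand in the 250 bases before the start of 7 of the 45 members with a promoter, against 10.1% of all promoters. They included the gene of the structural subunit Psmb2 and those of the cutting subunits Psmb5 and Psmb6, whose windows are shown with the match in capitals. It lies 68 to 60 bases before the start for Psmb2 (chr5:144254965-144255023, plus strand), 60 to 52 for Psmb5 (chr15:32047406-32047464, minus strand) and 24 to 16 for Psmb6 (chr10:55737839-55737887, plus strand) in GRCr8.
Psmb2: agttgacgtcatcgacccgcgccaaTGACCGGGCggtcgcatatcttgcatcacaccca
Psmb5: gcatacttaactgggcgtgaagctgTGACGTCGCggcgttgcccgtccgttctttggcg
Psmb6: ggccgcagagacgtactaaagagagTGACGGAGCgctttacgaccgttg

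Nfe2l1, the gene of NRF1, measured 368, 316 and 348 CPM after PRATA and 289, 337 and 314 CPM in sham samples, with a log2 fold change of 0.13 and a 95% confidence interval of -0.28 to 0.54 (adjusted p = 0.716). Its relative Nfe2l2, the gene of NRF2, measured 65.7, 86.2 and 55.4 CPM against 122, 70.1 and 109 CPM, with a log2 fold change of -0.54 (adjusted p = 0.303). Keap1, which holds NRF2 for degradation, was above every sham sample in each PRATA sample, with 39.1, 31.5 and 36.9 CPM against 25.6, 26.7 and 27.7 CPM and a log2 fold change of 0.42 (adjusted p = 0.233). Of the 12 genes of this list, which also held the enzymes that activate NRF1 and its partners, 5 were higher and 7 lower, with a median log2 fold change of -0.09, and Keap1 was the single gene at an unadjusted p under 0.05, which is 8.33% of the list beside 18.3% of all genes. The median was 0.02 without sham replicate 3 and -0.23 without sham replicate 2. Sel1l, a partner in the pathway that moves NRF1 out of the membrane, had 176, 182 and 161 CPM against 231, 162 and 593 CPM, a log2 fold change of -0.93 (adjusted p = 0.303) that rested on sham replicate 3, and was -0.18 without it.

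Substrates reach the proteasome through shuttle factors and the p97 unfoldase. Of 12 genes of this list, 10 had a lower mean after PRATA, beside 48.0% of all genes below 0, and 4 were lower without overlap, beside 11.2% of all genes. The median log2 fold change was -0.21, and was -0.12 without PRATA replicate 2 and -0.10 without sham replicate 3. Ubqln2, a shuttle that carries ubiquitinated proteins, had 169.6, 156 and 182 CPM after PRATA and 242, 201 and 267 CPM in sham samples (log2 fold change -0.49, adjusted p = 0.228). Nsfl1c, a cofactor of p97, had 101, 82.3 and 101 CPM against 126, 111 and 148 CPM (log2 fold change -0.43, adjusted p = 0.257). Both were lower in every PRATA sample, and 2 of the 12 genes (16.7%) were at an unadjusted p under 0.05, a share near the 18.3% of all genes. Of 9 enzymes and regulators bound to the proteasome, 4 were higher and 5 lower, with a median of -0.29 that was -0.09 without PRATA replicate 2, -0.12 without sham replicate 2, -0.18 without sham replicate 1 and -0.18 without sham replicate 3. Akirin2, which carries proteasomes into the nucleus, had 52.0, 56.1 and 60.5 CPM against 78.9, 66.2 and 71.7 CPM, without overlap (log2 fold change -0.36, adjusted p = 0.272). Zfand5, an activator of the 26S particle, had 174, 154 and 145 CPM against 282, 150.3 and 284 CPM (log2 fold change -0.60, adjusted p = 0.273), with sham replicate 2 among the PRATA samples. Without that sample its log2 fold change was -0.84 and passed the adjusted threshold (edgeR, adjusted p = 0.0394), as 721 genes of the whole table did. The sample left out there was the sham sample that went against the difference.

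Ubiquitin itself is encoded by polyubiquitin genes and by fusions to ribosomal proteins, and these differed in sign. Ubb, a polyubiquitin gene whose row the table annotates as a pseudogene, had 1825, 1872 and 2248 CPM after PRATA and 1870, 1456 and 1330 CPM in sham samples, with a log2 fold change of 0.35 (adjusted p = 0.439). The fusion gene Rps27a had 2 rows in the table, which can share reads: the first had 93.7, 93.1 and 87.1 CPM against 97.8, 128 and 142 CPM, without overlap (log2 fold change -0.42, adjusted p = 0.267). The second had a log2 fold change of -0.43 (adjusted p = 0.520). Over all 7 rows of the ubiquitin and E1 genes, 4 were higher and 3 lower, with a median log2 fold change of 0.11. This median ran from 0.02 without PRATA replicate 1 to 0.20 without PRATA replicate 2, and was -0.009 among protein-coding genes alone and -0.03 in the 4 samples without PRATA replicate 3 and sham replicate 1.

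**Figure D5:**
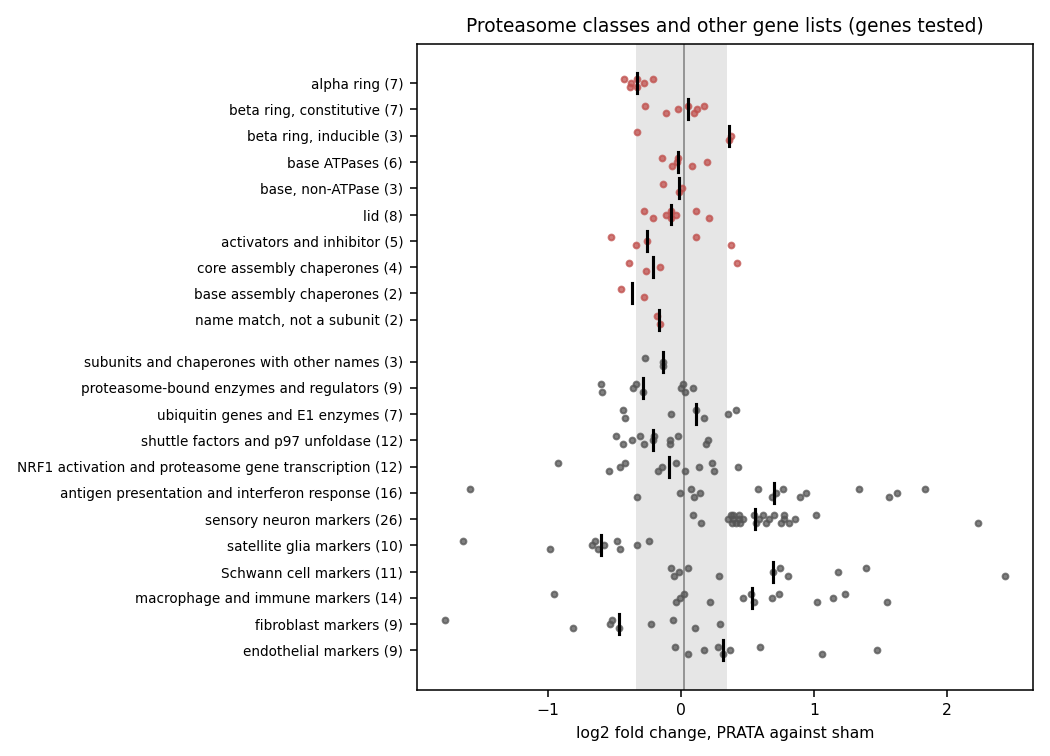
Log2 fold change (PRATA minus sham, horizontal axis) of each tested gene in the classes of proteasome genes, the pathway lists and the cell marker lists, with the median of each list as a line and the quartiles of all genes tested as a grey band. The medians of the proteasome classes lie between -0.36 and 0.36, while the medians of the sensory neuron and satellite glia markers are 0.55 and -0.60.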

How the data were processed

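RNA of isolated L1-L2 DRG neurons was sequenced from stranded total RNA libraries after cleavage of ribosomal fragments, paired end, in 3 PRATA and 3 sham samples. The deposited table holds raw counts per gene, made by the authors and not normalized. The paper's text names HISAT2, StringTie and Cuffdiff for its FPKM values, and the submitters' processing notes name STAR 2.7.3a, RSEM and DESeq2. Which of them made the counts, the strand setting, the treatment of reads with several positions, the genome build and the annotation are not given in the sources used here. Reads of copies, overlapping genes and antisense partners can therefore be mixed. The labels and the paper differ on the age of the animals.

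The quasi-likelihood test of edgeR 4.0.16 (R 4.3.3) was applied without covariates, two-sided, after TMM scaling (factors 0.953 to 1.10) and edgeR's filterByExpr (at least 10 counts per sample at the median depth, and 15 in total). Benjamini-Hochberg adjustment ran over all 14919 genes tested. "Rose" and "fell" were reserved for an adjusted p under 0.05. Within-sample differences between classes are means of log2 CPM. DESeq2 1.42.0, limma 3.58.1 and other settings were alternatives. Figures were drawn with matplotlib 3.10.9 in Python 3.11.15. Promoters and older symbols came from RefSeq (GRCr8), by symbol. No transcript lengths were used, so differences between classes or genes within a sample were read only for how they varied between samples. Total counts per sample bound the precision of low genes, and intervals cover the spread between samples.

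The members and lists were chosen with earlier results of these data known. Named genes were up to 3 per class with the smallest p, the inducible subunits and their counterparts, Psme1 to Psme4, up to 2 per other list, and Nfe2l1, Nfe2l2, Pomp and Adrm1. Psma1, Psmd14 and Irf7, the members with a promoter match and the 3 members that were not tested were added after their values were seen.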

Additional observations from a re-analysis of the deposited data

How the results depend on the processing

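The number of proteasome genes at an adjusted p under 0.05 was 0 under all 18 alternatives, and the median log2 fold change of the 26S genes lay between -0.22 and 0.02. The number lower at an unadjusted p under 0.05, 3 in the report, was 1 with no filter on low counts, 5 by voom, 0 in the 4 samples without PRATA replicate 3 and sham replicate 1, and 2 with a covariate for that pair. It was 0 to 5 when each sample was left out, and the number higher was 0 to 1, with Psmb8 counted without sham replicate 3. The labels give both groups the same replicate numbers, and a fit with that number as a replicate block gave 1 gene lower and an alpha ring median of -0.32. With group means removed, PRATA and sham samples of equal number correlated at -0.371, -0.0783 and -0.352 across genes. Deviations from a mean of 3 samples sum to 0 within a group, so these values cannot settle whether samples of equal number were handled together. The alpha ring median stayed between -0.49 and -0.23, and the constitutive beta median ran from -0.17 without sham replicate 1 to 0.15. Without PRATA replicate 2 the median was above 0 for the 26S genes (0.02), the ATPases (0.05) and the lid (0.02), and the ATPase median was also above 0 without sham replicate 2 (0.07) and sham replicate 3 (0.01).

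Signs changed for genes near 0. In the 4 samples the log2 fold change was -0.08 for Psmb6, -0.092 for Psmb3, -0.049 for Psmc3, -0.22 for Psmb5 and -0.15 for Psmd4. Psmd4 was also -0.021 with DESeq2's size factors and with protein-coding genes alone, -0.041 by library size, -0.012 by DESeq2, and -0.003 by voom and with at least 10 counts in every sample. When single samples were left out, Psmd4 ran from -0.17 to 0.10, Psmb5 from -0.17 to 0.17, Psmb3 from -0.002 to 0.20, Psmd2 from -0.15 to 0.082 and Pomp from -0.31 to 0.010. The cause was not tested. No proteasome gene was past an adjusted p under 0.05 in any setting, the lowest among the named ones being 0.0613 for Psmd5. Irf1, Gbp2, Sox10, Pou4f1 and Tubb3, which are not proteasome genes, passed an adjusted p under 0.05 by DESeq2 and by voom, all but Irf1 did so without sham replicate 2, and Irf1 alone of these did so in the 4 samples. Ngfr and Postn passed by DESeq2 and by voom, Fbln2 by voom, and Zfand5 without sham replicate 2.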
